A study of Mus musculus with 79 samples.

Results

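The transcripts described here are 9 neurotrophic factors and receptors, chosen by gene symbol from the 23361 genes of the count tables. They are the ligands Gdnf, Artn, Bdnf, Ntf3 and Fgf5, and the receptors Gfra1, Ret, Ngfr and Ntrk2. All 9 symbols were found. RNA was sequenced from 79 libraries of 32 mice, in which a freshly cut common peroneal nerve was joined to the tibial stump within a silicone conduit. Mice of the delayed group had the tibial nerve cut 8 weeks before repair, and those of the immediate group had a sham incision 8 weeks before and then cut and repair in a single operation. Both groups, male and female, carried enhanced green fluorescent protein under the human S100β promoter per the methods, so the Schwann cell sort rests on that transgene, and single bridges were not pooled. Age was not used here, and no uninjured nerve was among the samples. The labels name the bridge as the tissue of every sample and give the distal stump as the cell type of the stump samples. The tibial stump was taken 5 days after repair (9 delayed and 7 immediate libraries). At that day the delayed stump had been without axons for 8 weeks longer than the immediate one. Macrophages were sorted from the bridge at day 5 (9 delayed, 8 immediate) and day 14 (7 and 8), and Schwann cells at day 5 (9 and 7) and day 14 (7 and 8).

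After a nerve is cut, Schwann cells of the distal stump lose contact with axons, turn off myelin genes and take on a repair state in which they secrete growth factors for the regrowing neurons. GDNF and artemin belong to the GDNF family: each binds a GPI-anchored co-receptor (GFRα1 in the case of GDNF) that engages the receptor tyrosine kinase RET on neurons. BDNF and neurotrophin-3 are neurotrophins. BDNF signals through TrkB, encoded by Ntrk2, and every neurotrophin can bind the low-affinity receptor p75, encoded by Ngfr, which is a widely used marker of denervated Schwann cells. FGF5 is a secreted fibroblast growth factor.

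Total estimated counts ran from 3898778 to 9212709 per stump library, from 14928745 to 28499407 per macrophage library and from 11614940 to 30796823 per Schwann cell library. Levels are given as CPM, the count of a gene divided by the library total and scaled to a common total. The labels were checked against marker lists. The libraries labelled Schwann cells held Sox10, the transcription factor that defines the lineage, at 0 to 199 CPM and S100b at 0 to 49.5 CPM. The 8 Schwann cell markers summed to between 142 and 3421 CPM in them, whereas 6 dendritic cell markers summed to between 16345 and 35309 CPM, with Ccr7 and Flt3 above 0 in every library. Sox10 was below 5 CPM in 4 of the 9 delayed Schwann cell libraries of day 5 and in 0 of the other 22. Most fold changes and calls that rest on these 4 are therefore also given without them, a choice made after seeing the data. The edgeR calls against macrophages and the correlations across libraries are given only with them. The 6 macrophage markers summed to 122 to 4466 CPM in the Schwann cell libraries. These libraries are called Schwann cell libraries below by their label. The stump was made from rRNA-depleted RNA and the sorted cells from amplified cDNA, so levels of the stump and of sorted cells were not tested against each other.

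The 3 genes of the set that fell furthest in the delayed stump were Gdnf, Gfra1 and Ngfr. The stretches around their transcription starts are shown because these genes moved together there. They are RefSeq promoters of build GRCm38.p6, read 5′ to 3′ on the gene's strand from 250 bases before the start to 50 bases after. Capitals mark matches to the motifs given after the sequences. RefSeq gave a promoter for 8 of the 9 genes.
Gdnf, chr15:7809798-7810097, plus strand: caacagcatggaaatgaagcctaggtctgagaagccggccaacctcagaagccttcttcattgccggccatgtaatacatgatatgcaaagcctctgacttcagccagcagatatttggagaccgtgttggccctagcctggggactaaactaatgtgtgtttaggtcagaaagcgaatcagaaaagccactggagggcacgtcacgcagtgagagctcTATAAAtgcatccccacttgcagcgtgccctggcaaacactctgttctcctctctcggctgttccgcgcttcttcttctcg
Gdnf, second start, chr15:7813477-7813776, plus strand: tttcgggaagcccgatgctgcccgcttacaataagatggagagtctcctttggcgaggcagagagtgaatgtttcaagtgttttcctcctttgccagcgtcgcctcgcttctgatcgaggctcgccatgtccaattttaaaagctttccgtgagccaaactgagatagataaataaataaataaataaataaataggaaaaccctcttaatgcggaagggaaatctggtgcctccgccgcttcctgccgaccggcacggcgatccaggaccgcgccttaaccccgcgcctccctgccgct
Gfra1, chr19:58455349-58455648, minus strand: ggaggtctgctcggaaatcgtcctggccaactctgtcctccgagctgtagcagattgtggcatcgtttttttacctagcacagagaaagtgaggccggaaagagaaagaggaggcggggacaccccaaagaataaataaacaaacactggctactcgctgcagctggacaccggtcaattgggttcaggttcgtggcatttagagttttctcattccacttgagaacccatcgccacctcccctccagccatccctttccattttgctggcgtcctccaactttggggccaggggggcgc
Ngfr, chr11:95587649-95587948, minus strand: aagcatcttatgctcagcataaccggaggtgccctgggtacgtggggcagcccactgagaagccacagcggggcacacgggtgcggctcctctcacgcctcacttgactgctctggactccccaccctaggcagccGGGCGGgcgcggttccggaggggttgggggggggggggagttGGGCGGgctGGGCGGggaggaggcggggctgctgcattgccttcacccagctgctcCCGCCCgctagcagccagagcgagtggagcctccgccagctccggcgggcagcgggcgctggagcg

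Both strands were searched for 7 motifs. The AP-1 motif, to which dimers of Jun bind, was searched as TGANTCA. The cyclic AMP response element (CRE) was searched as TGACGTCA, and the motif of the EGR zinc finger factors as GCGGGGGCG. For SOX factors such as Sox10 the letters were ACAAAG. The E-box of basic helix-loop-helix factors was searched as CACGTG. The TATA box at which transcription can be initiated was searched as TATAAA. The GC box of the Sp1 family, GGGCGG, was added after the other motifs had been searched. AP-1 letters were in 7.79% of 32544 promoters of the same length, CRE in 1.8%, EGR in 2.93%, SOX in 18.7%, E-box in 7.17%, TATA in 13.6% and the GC box in 35.9%. The 4 windows printed held no AP-1, CRE, EGR, SOX or E-box letters. The first Gdnf window held TATA letters at position -31 from the start. The Ngfr window held 4 GC boxes, at positions -114, -72, -63 and -16, and was 71.7% G or C against 51.7% for both Gdnf windows and 54.0% for Gfra1. These matches describe letters in the windows and are not measured binding.

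In the stump 5 days after repair, the question was whether a stump left denervated for 8 weeks holds the same factors and receptors as a fresh one. Gdnf, its co-receptor Gfra1, the p75 receptor Ngfr and the TrkB receptor Ntrk2 were lower after delayed repair, Bdnf was higher, and Artn, Ret and Fgf5 did not pass the test. Of 12229 genes tested with edgeR's quasi-likelihood test, 26.3% were called at a Benjamini-Hochberg adjusted p under 0.05, 13.5% lower and 12.8% higher after delayed repair. Of the 8 genes of the set that had at least 5 CPM in at least 6 libraries and were therefore tested, 4 were called lower and 1 higher. The 1 higher, Bdnf, met this minimum only through the delayed libraries, in which it was high, so nothing is read from its direction in this count. The median log2 fold change of these 8 was -0.60, against 0.019 over all genes tested. The set was chosen with earlier results of these data known, so its share and median are not a test against all genes. In bulk tissue, fewer cells of a type and less RNA per cell cannot be told apart.

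Among the ligands, Gdnf ranged from 28.8 to 92.6 CPM in the 7 immediate stumps, with a median of 64.0 CPM. In the 9 delayed stumps it ranged from 2.22 to 28.7 CPM, with a median of 8.15 CPM. Every delayed library lay below every immediate library, the closest pair being 28.7 and 28.8 CPM. The log2 fold change was -2.60 (SE 0.39), with an adjusted p of 1.69e-04 in edgeR. Repair groups without overlap and lower after delay occurred in 3.61% of all genes tested, and for Gdnf, Gfra1 and Ngfr of the set.

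Gfra1, the binding subunit for GDNF, showed the largest fitted difference of the set in the stump. It ranged from 232 to 576 CPM after immediate repair (median 373 CPM, n = 7) and from 6.07 to 100.0 CPM after delayed repair (median 30.3 CPM, n = 9). The groups were again separate, and delayed replicate 3 held the lowest value. Its log2 fold change was -3.39 (SE 0.36; edgeR adjusted p 7.19e-06), 53rd by p among all genes tested. Ret, the kinase that Gfra1 presents GDNF to, was low in both groups, at 7.15 ± 2.0 CPM (SD, n = 7) after immediate and 8.13 ± 3.72 CPM (SD, n = 9) after delayed repair. Its log2 fold change of 0.21 (SE 0.26) had an edgeR adjusted p of 0.579, and the delayed range of 4.27 to 16.6 CPM enclosed the immediate range of 4.56 to 9.86 CPM.

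Ngfr was the most abundant gene of the set in the stump. It held 394 to 1015 CPM after immediate repair, with a median of 885 CPM, and 29.4 to 286 CPM after delayed repair, with a median of 103 CPM. Again no delayed library reached an immediate one. The log2 fold change was -2.92 (SE 0.39; edgeR adjusted p 5.12e-05).

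Ntrk2 overlapped between the groups. Immediate stumps held 34.8 to 66.8 CPM (median 55.1 CPM) and delayed stumps 9.92 to 61.6 CPM (median 27.6 CPM), with 6 of 9 delayed libraries below the lowest immediate one. The log2 fold change was -0.77 (SE 0.27) and the edgeR adjusted p, 0.0450, lay close to the threshold. The call was lost in 9 of the 16 fits that left out 1 library, with adjusted p from 0.00628 to 0.0903: without delayed replicate 2, 3, 4, 6 or 9 or immediate replicate 2, 4, 6 or 7. The log2 fold change in these 16 fits ran from -0.99 to -0.66.

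Bdnf, the ligand of TrkB, went the other way at a low level. It ranged from 2.63 to 4.67 CPM after immediate repair (median 3.58 CPM) and from 3.56 to 8.27 CPM after delayed repair (median 7.01 CPM). Of the 9 delayed libraries, 6 lay above the highest immediate library. The log2 fold change was 0.72 (SE 0.20; edgeR adjusted p 0.0147). Bdnf reached 5 CPM in 6 delayed and 0 immediate libraries, so it entered the test only through the group in which it was high. Without any filter on low counts, over 22165 genes of which 14.2% were called, the log2 fold change was 0.68 (SE 0.21; edgeR adjusted p 0.0368). An antisense gene, Gm45346, overlaps exons of Bdnf on the other strand, and Gm16277 overlaps those of Gfra1. Stump libraries came from a kit that keeps strand, and the methods give a first-strand setting for alignment and for FPKM values, without saying whether the deposited counts used it. The kit of the sorted cells does not mark strand, so reads of these pairs cannot be told apart there.

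The remaining ligands did not pass the test in the stump. Artn held 8.36 ± 4.64 CPM (SD, n = 7) after immediate and 6.0 ± 5.05 CPM (SD, n = 9) after delayed repair, with a log2 fold change of -0.43 (SE 0.45; edgeR adjusted p 0.514). Fgf5 held 18.0 ± 6.36 CPM (SD, n = 7) and 20.3 ± 14.5 CPM (SD, n = 9), with a log2 fold change of 0.18 (SE 0.38; edgeR adjusted p 0.760). The delayed stumps spread over 4.86 to 51.2 CPM for Fgf5, to both sides of the immediate range of 8.56 to 23.6 CPM. Ntf3 was below the minimum for testing, at 0.413 ± 0.258 CPM (SD, n = 7) and 0.715 ± 0.811 CPM (SD, n = 9), with at most 15 counts in a library. In the fit with no filter its log2 fold change was 0.91 (SE 0.63; edgeR adjusted p 0.371).

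**Figure D1:**
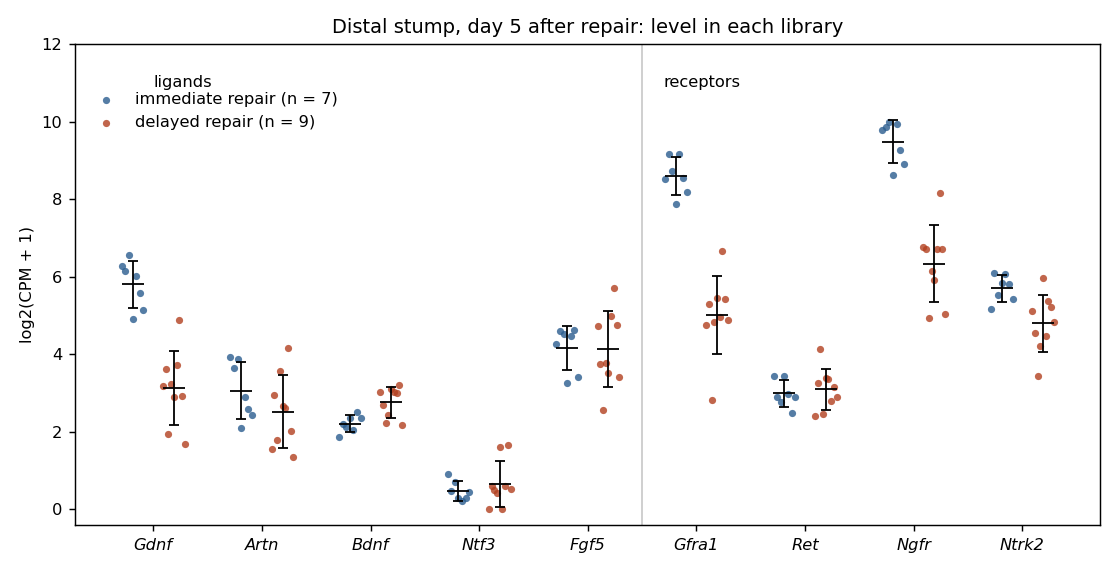
Level of each gene in the 16 stump libraries, as log2(CPM + 1), with the mean and SD of each repair group; ligands are on the left and receptors on the right. Gdnf, Gfra1 and Ngfr of the 9 delayed libraries lie below all 7 immediate libraries, and the other 6 genes overlap.

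Levels can be set against each other between genes only per length of transcript, here CPM per kilobase of the union of annotated exons (GENCODE vM21, the annotation of GRCm38). After immediate repair the order in the stump was Ngfr (220 ± 74.2 per kilobase, SD, n = 7), Gfra1 (73.9 ± 23.8), Gdnf (16.02 ± 6.33), Fgf5 (7.21 ± 2.54), Artn (3.47 ± 1.93), Ntrk2 (2.71 ± 0.64), Ret (1.06 ± 0.30), Bdnf (0.588 ± 0.111) and Ntf3 (0.241 ± 0.150). Mean ± SD overlapped between Gdnf and Fgf5, between Fgf5 and Artn, and between Artn and Ntrk2, and no other neighbours overlapped. After delayed repair Ngfr still had the highest mean (28.8 ± 22.3 per kilobase, SD, n = 9), followed by Fgf5 (8.13 ± 5.81), Gfra1 (6.94 ± 4.71) and Gdnf (2.63 ± 2.15). There every neighbour in the order overlapped within its SD. Gdnf, at chr15:7810846-7837575, spans 3674 exon bases, and Ntrk2, at chr13:58806569-59133970, spans 19292, so the order by CPM alone differs.

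Schwann cell markers fell in the same stumps. The test called all 8 of them lower in delayed stumps, and their median difference was -2.67 on the log2 scale. Sox10 fell by 2.03 on the log2 scale (SE 0.35), Cdh19 by 2.68 (SE 0.36), Foxd3, a neural crest transcription factor, by 2.81 (SE 0.37), and S100b, a calcium-binding protein of Schwann cells, by 4.86 (SE 0.42). The summed markers ranged from 1035 to 2423 CPM after immediate and from 93.9 to 581 CPM after delayed repair, without overlap. The changes of Gdnf (-2.60), Ngfr (-2.92) and Gfra1 (-3.39) thus lay within the range of the 8 markers, and those of Ntrk2 and Bdnf outside it. Among markers of other cell types, 4 of 5 endothelial, 3 of 5 mural, 2 of 6 macrophage and 2 of 6 dendritic cell markers were called higher after delayed repair, and 1 mural marker (Cspg4) was called lower. The summed macrophage markers ranged from 1440 to 2208 CPM after delayed and from 599.9 to 1890 CPM after immediate repair. Of 6 fibroblast and 4 perineurial markers, 0 were called. Of 4 skeletal muscle markers 1 was tested and called higher (Des, 1.34), and their sum was 14.7 to 31.3 CPM in immediate stumps and 29.1 to 222 CPM in 8 delayed stumps, with 1890 CPM in delayed replicate 5. Without that stump 4 genes of the set were called, Gdnf, Gfra1, Ngfr and Ntrk2, and Bdnf did not meet the minimum for testing. The part of cell composition in these results was not tested.

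**Figure D2:**
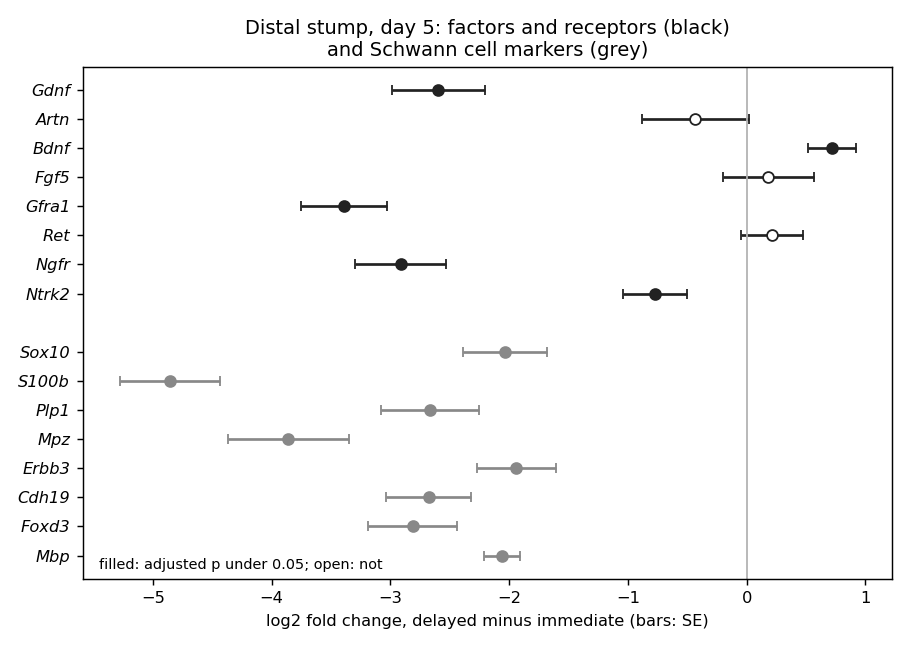
Fitted log2 fold change (delayed minus immediate) with its SE in the stump, for the 8 tested factors and receptors (black) and the 8 Schwann cell markers (grey); filled circles have an adjusted p under 0.05. Gdnf, Gfra1 and Ngfr lie at -2.60, -3.39 and -2.92, beside markers from -1.94 to -4.86.

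To describe the levels relative to a Schwann cell gene, counts were divided by those of Sox10 in the 8 delayed and 7 immediate stumps with at least 50 Sox10 counts. Delayed replicate 3 had 36 and was left out. No test was made of these ratios, which share their denominator. Ngfr stood at 605 to 848 counts per 100 Sox10 counts after immediate repair (median 708) and at 281 to 473 after delayed repair (median 393), with no overlap, and 0.131% of 12228 genes lay lower without overlap on this scale. The direction depends on the gene chosen as denominator. With each of the 8 Schwann cell markers in turn, an alternative added after seeing the data, the delayed median of Ngfr was lower for 6 and higher for 2. It was lower without overlap for Sox10 and Erbb3 alone, and the share of all genes was taken for Sox10 and not for Erbb3. Per 100 S100b counts Ngfr stood at 267 to 579 after immediate and 547 to 6144 after delayed repair. Per 100 Sox10 counts Gdnf stood at 45.8 to 65.0 (median 52.6) and 21.3 to 47.4 (median 41.2), which overlapped. Gfra1 had medians of 389 and 157, and its highest delayed library, at 400.0, lay above the lowest immediate one, at 297. The delayed median was lower for 4 of the 8 denominators for Gdnf and for 6 of 8 for Gfra1. Per 100 S100b counts every delayed stump lay above every immediate one for both, at 59.5 to 686 against 17.5 to 52.9 for Gdnf and at 397 to 1686 against 155 to 335 for Gfra1. The share of all genes above without overlap was not taken for S100b. Nothing particular to Gdnf or Gfra1 can therefore be read from this separation.

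Bdnf and Fgf5 lay the other way on this scale. Bdnf stood at 2.23 to 6.89 counts per 100 Sox10 counts after immediate repair and at a median of 22.7, reaching 52.3, after delayed repair. Fgf5 stood at 14.1 to 23.1 and at 51.4 to 134. Both were higher without overlap with each of the 8 denominators, and with Sox10 so were 45.1% of all genes, and the median ratio of delayed to immediate medians over all genes was 4.28. Nothing particular to Bdnf or Fgf5 can be read from a place among so many genes.

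**Figure D3:**
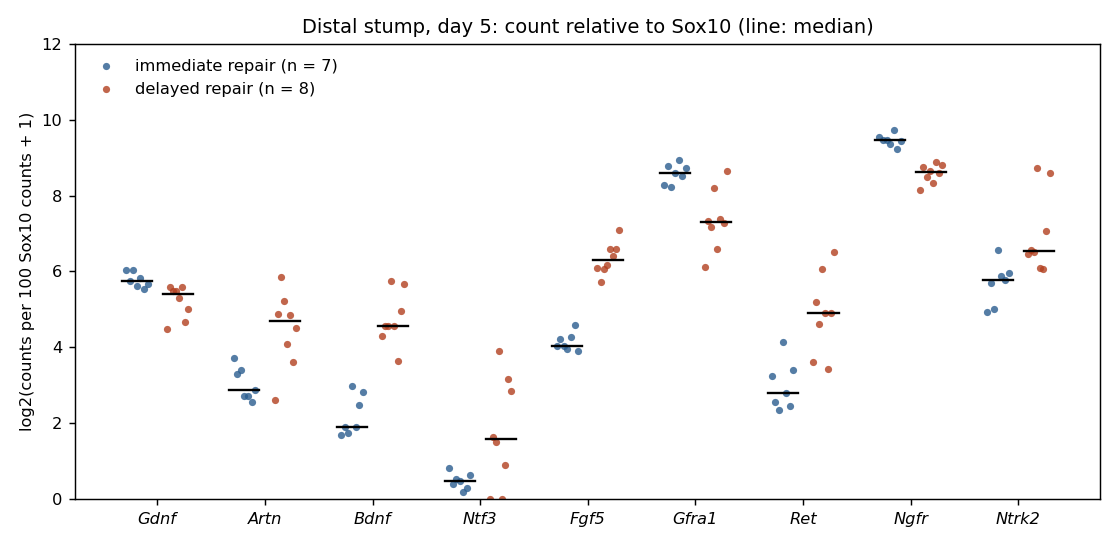
Counts of each gene per 100 Sox10 counts in the stump, as log2(ratio + 1), for 7 immediate and 8 delayed libraries, with a line at the median. Ngfr of the delayed libraries (281 to 473) lies below the immediate ones (605 to 848), a direction that turns with S100b as denominator, while Bdnf and Fgf5 of the delayed libraries lie above.

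Over the 16 stumps, the genes whose log2(CPM + 1) followed each member most closely were looked up among all genes tested. These correlations are descriptions over libraries that share the repair groups and their marker levels, and the value after subtracting each group's mean is given second. Ngfr went with Sox2 (Pearson r 0.990 and 0.956 within groups), a transcription factor of immature Schwann cells, with Hmga2 (0.989 and 0.951) and with Gdnf (0.988 and 0.954). Gdnf went with Ngfr, Hmga2 (0.985 and 0.940) and Slc22a23 (0.983 and 0.933). Gfra1 went with Abcb9 (0.986 and 0.923), Reln, which encodes the extracellular protein reelin (0.980 and 0.906), and Ugt8a, an enzyme of myelin galactolipid synthesis (0.978 and 0.853). Ntrk2 went with Pink1 (0.945 and 0.909), Rragd and Fam92a, Bdnf with Mbnl1 (0.908 and 0.851), Pappa and AA987161, and Artn with Star (0.906 and 0.897), Slc25a27 and Herc3.

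The likeness was lower for the others. Fgf5 was closest to Csmd1 (0.867 and 0.867), Fign and Cxxc5, and Ret to Htra3 (0.772 and 0.768), Lrrn4cl and Zscan29. Between members, Fgf5 had a correlation of 0.42 with Ngfr over all stumps and of 0.90 within the repair groups, so within a group the stumps with more Ngfr had more Fgf5 although Fgf5 did not pass the test between groups. Artn likewise had 0.68 with Gdnf over all stumps and 0.84 within groups. Ret had negative correlations with Gdnf, Gfra1, Ngfr, Ntrk2 and Fgf5 within groups, from -0.30 to -0.52.

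Other genes of these pathways were taken from lists chosen for their roles, with earlier results of these data known. Their counts stand beside 13.5% of all genes called lower and 12.8% called higher in the stump, and are not a test of the lists. Of 7 other neurotrophin genes tested in the stump, 3 were called lower and 0 higher, all of them sortilin family receptors, which bind proneurotrophins and sort neurotrophin receptors: Sorcs1 (-1.49, SE 0.38), Sorcs2 (-0.89, SE 0.21) and Sort1 (-0.48, SE 0.14). Of 3 other GDNF family genes tested, the heparan sulphate co-receptor Sdc3 was called higher (0.61, SE 0.17). Of 5 FGF genes tested, 0 were called. At an unadjusted p under 0.05 only Fgf1 (-0.67, SE 0.25) would have been, as would 38.5% of all genes tested in the stump.

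Of 5 other neurotrophic ligands and receptors, Cntf, the ciliary neurotrophic factor that myelinating Schwann cells contain, fell by 1.56 (SE 0.30) and the growth factor Mdk by 0.63 (SE 0.22), and 0 were higher. Of 14 adaptors and feedback genes of RET and TRK signaling, 5 fell and 1 rose, against 13.5% and 12.8% of all genes. Spry2, a feedback inhibitor of receptor tyrosine kinase signaling, fell by 0.78 (SE 0.11). The phosphatase Ptpn11 fell by 0.42 (SE 0.07) and the RET adaptor Dok4 by 1.84 (SE 0.33). Plcg1, the phospholipase recruited by TRK receptors, rose by 0.52 (SE 0.13). Of 5 genes of proneurotrophin processing, Plat, the tissue plasminogen activator, fell by 0.81 (SE 0.18). The list medians were 0.47 for GDNF family genes, -0.014 for FGF genes, -0.42 for other ligands and receptors, -0.14 for adaptors and -0.063 for processing genes, against 0.019 over all genes.

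Of 7 regulators of the repair Schwann cell, 5 were called lower in the delayed stump and 0 higher, against 13.5% and 12.8% of all genes, with a median of -1.28. Shh, a secreted morphogen switched on in injured Schwann cells, had the largest difference of the lists, at -5.91 (SE 0.57). It held 124 ± 51.5 CPM (SD, n = 7) after immediate and 2.21 ± 3.04 CPM (SD, n = 9) after delayed repair. Jun, the transcription factor of the repair state, held 307 ± 42.1 CPM and 177 ± 24.8 CPM, and fell by 0.77 (SE 0.10). Atf3, another injury-induced transcription factor, fell by 1.86 (SE 0.20).

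In sorted macrophages the set was close to absent, and none of its 9 genes reached the minimum for a test between repair groups or days. Over all 32 macrophage libraries, Fgf5 and Ntf3 had 0 counts of a total of 675886072, which allows up to 0.00444 CPM each (3 counts; counting error only). Ngfr had 1 count in 1 library, Ntrk2 4 counts and Bdnf 11. The highest value of any of the 9 genes in a macrophage library was 0.982 CPM, for Gdnf. No difference between repair groups was detectable at this depth.

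In the Schwann cell libraries 5 of the 9 genes were measured well enough for a test in at least 1 comparison: Gdnf, Gfra1, Ngfr, Ntrk2 and Fgf5. All 5 were far above their level in macrophages. At day 5 the 16 Schwann cell libraries together held 26.2 CPM of Fgf5, at least 3308-fold higher than the floor of 3 counts over the 17 macrophage libraries, which held 0. At day 14 Fgf5 was at least 11961-fold higher and Ngfr at least 2230-fold higher in the same way, over 15 libraries each. At day 5 the Ngfr ratio rested on 1 macrophage count and was 7466-fold, with an exact 95% counting interval of 1340 to 294917. Gdnf was 326-fold higher at day 5 (interval 215 to 521) and 429-fold higher at day 14 (299 to 641), and Gfra1 461-fold (336 to 652) and 339-fold (217 to 563). Ntrk2 rested on 2 macrophage counts at each day and was 1253-fold higher at day 14 (347 to 10356). Without the 4 low-Sox10 libraries the day 5 ratios were 402-fold for Gdnf, 595-fold for Gfra1, 9546-fold for Ngfr and at least 4197-fold for Fgf5. The edgeR test called Gdnf, Gfra1, Ngfr and Fgf5 higher at day 5, where 35.6% of 10087 genes were called higher, and these and Ntrk2 at day 14, where 37.1% of 10596 were. Each of them met the minimum for testing through the Schwann cell libraries alone, so this direction was set by the filter and nothing is read from the count.

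Per kilobase, the highest mean at day 14 in these sorted cells was that of Fgf5, at 63.1 ± 51.9 (SD, n = 8) after immediate and 30.3 ± 16.9 (SD, n = 7) after delayed repair, followed by Gdnf at 10.4 ± 4.65 and 13.0 ± 7.31. At day 5 after immediate repair Gfra1, Fgf5, Ngfr and Gdnf overlapped at 15.6 ± 17.0, 10.4 ± 11.0, 9.47 ± 9.55 and 9.33 ± 5.25 (SD, n = 7). In all 4 Schwann cell groups these 4 genes came first in the order, and neighbours among them overlapped within their SD. Ntf3 had counts in 1 of 31 Schwann cell libraries, with 42 counts.

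At day 5, delayed and immediate repair were compared in the Schwann cell libraries. No gene of 9604 was called (0.00%), while 505, or 5.26%, had an unadjusted p under 0.05, and 14 were called with DESeq2. Gdnf ranged from 8.39 to 62.2 CPM after immediate repair (median 40.7 CPM, n = 7) and from 0 to 20.4 CPM after delayed repair (median 6.57 CPM, n = 9). All 9 delayed libraries lay below the immediate mean and 5 below the lowest immediate library. Its log2 fold change was -2.27 (SE 0.71), and the edgeR adjusted p of 0.799 did not pass.

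Gfra1 and Ngfr had the same sign without passing. Gfra1 ranged from 0.0702 to 215 CPM after immediate (median 64.0 CPM) and from 0 to 61.1 CPM after delayed repair (median 4.90 CPM), with a log2 fold change of -2.63 (SE 1.17; edgeR adjusted p 0.913). Ngfr ranged from 2.28 to 89.7 CPM (median 21.8 CPM) and from 0.106 to 36.5 CPM (median 3.70 CPM), with a log2 fold change of -2.02 (SE 0.88; edgeR adjusted p 0.913). Fgf5 differed little, at 0.056 (SE 1.15; edgeR adjusted p 0.999). Without the 4 delayed libraries under 5 CPM of Sox10 the log2 fold changes were -1.87 for Gdnf, -1.84 for Gfra1, -1.27 for Ngfr and 0.85 for Fgf5, with edgeR adjusted p from 0.874 to 0.958.

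At day 14 the comparison was repeated with 7 delayed and 8 immediate Schwann cell libraries. No gene of 10226 was called (0.00%), with 373 (3.65%) at an unadjusted p under 0.05 and 3 called with DESeq2. Gdnf held 5.88 to 76.3 CPM after delayed (median 63.7 CPM) and 14.3 to 66.0 CPM after immediate repair (median 36.2 CPM), with a log2 fold change of 0.26 (SE 0.40; edgeR adjusted p 0.998). Gfra1 had a log2 fold change of 0.015 (SE 0.45). Ngfr (-1.05, SE 0.45) and Fgf5 (-1.14, SE 0.49) were under the mean of the immediate group in 7 of 7 delayed libraries, and Ntrk2 had 2.19 (SE 1.21), all with an edgeR adjusted p of 0.998. Ntrk2 reached 67.0 CPM in delayed replicate 1 and was 0 in delayed replicate 3.

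**Figure D4:**
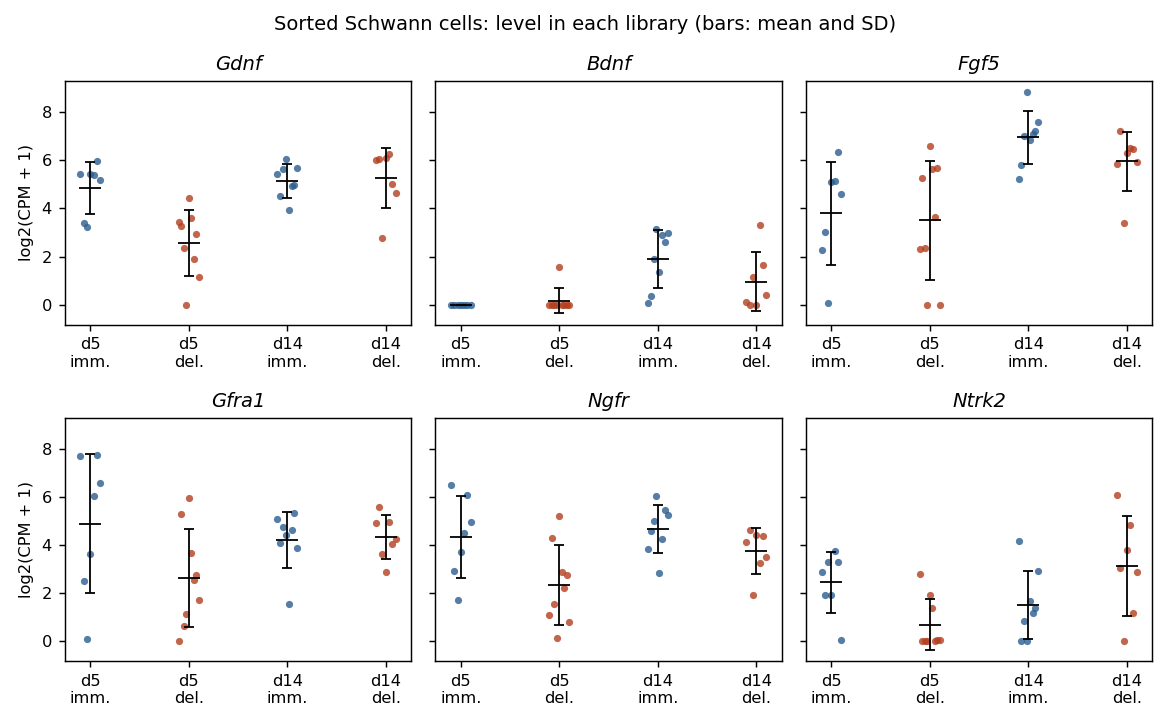
Level of 6 genes in each of the 31 Schwann cell libraries, as log2(CPM + 1), by day (d5, d14) and repair (imm., del.), with mean and SD. At day 5 the 9 delayed libraries hold 0 to 20.4 CPM of Gdnf against 8.39 to 62.2 CPM in the 7 immediate ones, and at day 14 the groups overlap.

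Between the days, which came from different animals, Gdnf after delayed repair was the 1 gene of the set called among those that met the minimum for testing. From day 5 to day 14 after delayed repair Gdnf rose from 7.18 ± 6.29 CPM (SD, n = 9) to 47.7 ± 26.9 CPM (SD, n = 7), a log2 fold change of 2.54 (SE 0.70; edgeR adjusted p 0.0369). In that comparison 8.09% of 9961 genes were called, 3.34% higher. Gdnf had reached 5 CPM in 5 of 9 libraries at day 5 and in 7 of 7 at day 14. Of 7 libraries of day 14, 6 lay above the day 5 mean. The call was lost without the 4 low-Sox10 libraries (2.13, adjusted p 0.0986), without a filter on low counts (2.50, adjusted p 0.0526), with limma-voom (2.81, adjusted p 0.106) and with the replicate number as a block (2.73, adjusted p 0.106). With 1 library left out at a time, a check added after seeing the data, it was lost in 8 of 16 fits (2.36 to 2.87, adjusted p 0.0209 to 0.0766): those without replicate 3, 7, 8 or 9 of day 5 or replicate 1, 2, 4 or 6 of day 14. Schwann cell markers were also higher at day 14 in this comparison. The summed Schwann cell markers went from a median of 227 CPM (142 to 475) to 1940 CPM (503 to 3421), without overlap, and 3 of 8 were called higher, with a median log2 fold change of 2.68. Without the 4 low-Sox10 libraries 0 of the 8 were called. The summed fibroblast markers had medians of 337 and 3795 CPM, with 0 of 5 tested called and log2 fold changes from 1.82 to 4.19. The macrophage markers had medians of 1478 and 698 CPM, with 0 of 6 called and log2 fold changes from -1.43 to -0.48. Of 6 dendritic cell markers 1 was called lower, Flt3 (-0.87, SE 0.20), with a list median of -0.34, and of 2 mural markers tested 0 were called, with a median of 2.33. Their part in the Gdnf result was not tested.

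After immediate repair Gdnf was 34.3 ± 19.3 CPM (SD, n = 7) at day 5 and 38.0 ± 17.1 CPM (SD, n = 8) at day 14, a log2 fold change of 0.0036 (SE 0.37; edgeR adjusted p 0.997). The difference between these changes, tested as the interaction of repair and day, was 2.52 (SE 0.82) for Gdnf and did not pass (unadjusted p 0.00442, edgeR adjusted p 0.760). Without the 4 low-Sox10 libraries it was 2.13 (edgeR adjusted p 0.614). In that test 0 of 10923 genes were called (0.00%), with 524 (4.8%) at an unadjusted p under 0.05 and 9 called with DESeq2. Ntrk2 had 3.61 (SE 1.44; edgeR adjusted p 0.122) between the days after delayed repair. In the interaction it had 4.55 (SE 1.92; edgeR adjusted p 0.975), and neither passed.

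Fgf5 had its highest levels at day 14. After immediate repair it went from 26.0 ± 27.6 CPM (SD, n = 7) to 158 ± 130 CPM (SD, n = 8), with all 8 libraries of day 14 above the day 5 mean. The log2 fold change of 2.50 (SE 0.82) had an adjusted p of 0.0974 with edgeR, where 3.81% of 10016 genes were called, and of 0.0255 with DESeq2. After delayed repair the values were 27.9 ± 32.7 CPM (SD, n = 9) and 75.8 ± 42.3 CPM (SD, n = 7), with a log2 fold change of 1.31 (SE 0.93; edgeR adjusted p 0.396), and of 0.52 (adjusted p 0.658) without the 4 low-Sox10 libraries. Gfra1 had -2.09 (SE 0.88; edgeR adjusted p 0.207) between the days after immediate repair, with all 8 libraries of day 14 below the day 5 mean. Between these days after immediate repair the summed fibroblast markers had medians of 1391 and 5316 CPM (0 of 5 tested called, median log2 fold change 1.22), the Schwann cell markers 641 and 798 CPM (0 of 8 called, 0.52) and the macrophage markers 399.5 and 865 CPM (0 of 6 called, 0.029). Of 6 dendritic cell markers 1 was called lower, Zbtb46 (-0.89, SE 0.22), with a list median of -0.34, and of 2 mural markers tested 0 were called (0.89). The summed neutrophil markers had medians of 7.16 and 1.86 CPM, with the highest library of day 14 at 8008 CPM. Of these, S100a9 was tested and not called (6.65, SE 2.38; edgeR adjusted p 0.130). The summed skeletal muscle markers reached 122 CPM at day 5 and 277 CPM at day 14. The part of all these markers in the values of Fgf5, Gfra1 and Bdnf was not tested.

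Bdnf had 0 counts in all 7 immediate libraries of day 5 and counts in all 8 of day 14, at 0.0611 to 7.92 CPM, so the days did not overlap, which held in the same direction for 0.606% of the 16993 genes with any count in these libraries. It did not meet the minimum for the main test. In the fit without a filter, in which 1.99% of 16993 genes were called, it was called higher at day 14 (edgeR adjusted p 0.0153). After delayed repair it had counts in 1 of 9 libraries at day 5 and in 5 of 7 at day 14, and did not pass (edgeR adjusted p 0.315). Artn and Ret stayed low, at means of at most 2.77 and 2.53 CPM in any Schwann cell group. Ret had counts in 11 of 31 of these libraries, reaching 16.4 CPM in immediate replicate 7 of day 5.

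Of the other genes of these pathways, 0 were called between repair groups in the Schwann cell libraries on either day. Between days after immediate repair, where 0.719% of all genes were called higher and 3.1% lower, 2 of 35 genes tested from these lists were called higher at day 14, Ptn and Ptprz1, and 1 lower, the FGF receptor gene Fgfr3 (-2.15, SE 0.49). After delayed repair, where 3.34% of all genes were called higher, 5 of 34 tested were: Ptn, Ptprz1, the GDNF family co-receptor gene Gfra2 (2.32, SE 0.65), the adhesion molecule gene Ncam1 (3.51, SE 0.90) and the FGF receptor gene Fgfr1 (1.88, SE 0.43). Without the 4 low-Sox10 libraries, where 0.257% of 9727 genes were called higher, Ncam1 was the 1 of 34 called (2.75, edgeR adjusted p 0.0288), and the other 4 had 1.68 to 3.44 with adjusted p from 0.120 to 0.167. Ptn encodes the growth factor pleiotrophin and Ptprz1 a receptor of it. Ptn went from 1.60 ± 1.73 CPM (SD, n = 7) to 26.9 ± 15.1 CPM (SD, n = 8) after immediate repair and from 1.99 ± 1.69 CPM (SD, n = 9) to 27.6 ± 21.2 CPM (SD, n = 7) after delayed repair. Ptprz1 went from 0.890 ± 2.24 CPM to 41.7 ± 26.1 CPM and from 2.98 ± 4.04 CPM to 54.9 ± 41.7 CPM. These genes were named after their values were seen. Ptn reached at most 4.11 CPM in an immediate and 4.26 CPM in a delayed library of day 5. It thus met the minimum for testing through day 14 alone. Ptprz1 was at 0 in 4 of 7 and 2 of 9 libraries of day 5. With its day 5 means it could not have met the minimum without libraries of day 14. Nothing is therefore read from the direction of these calls of Ptn and Ptprz1.

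For 6 of the 9 genes the level was set against the Schwann cell markers across the 31 libraries. The mean log2(CPM + 1) of the 8 markers had a Pearson correlation with Ngfr of 0.80 over all libraries and 0.85 after subtracting the group means. The pair of values was 0.89 and 0.81 for Gdnf, 0.74 and 0.81 for Gfra1, 0.72 and 0.65 for Fgf5, 0.55 and 0.38 for Ntrk2 and 0.30 and 0.22 for Artn. The points share library depth and the number of cells sorted, and no p is given. The summed Schwann cell markers were 142 to 475 CPM in the delayed and 195 to 1232 CPM in the immediate libraries of day 5, with 0 of 8 called and a median log2 fold change of -1.63. In the same libraries the summed macrophage markers were 196 to 4466 CPM (median 1478) in the delayed and 122 to 1683 CPM (median 399.5) in the immediate group, with all 6 fold changes positive, a median of 1.48 and 0 called. The summed fibroblast markers had medians of 337 and 1391 CPM (0 of 4 tested called), and the dendritic cell markers ranged from 19985 to 34035 CPM and from 20037 to 35039 CPM. The part of the marker levels in the comparisons above was not tested.

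**Figure D5:**
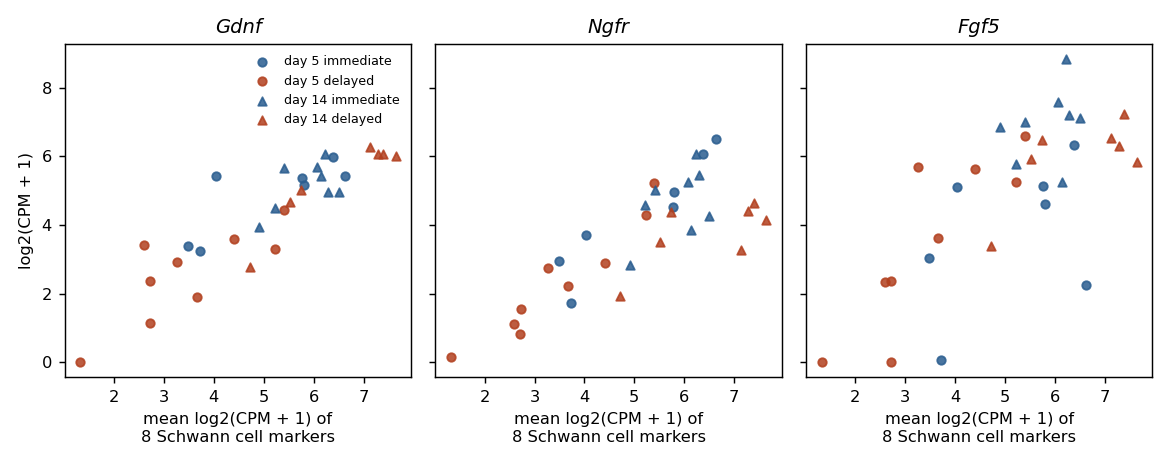
Level of Gdnf, Ngfr and Fgf5 against the mean log2(CPM + 1) of 8 Schwann cell markers in the 31 Schwann cell libraries; circles are day 5, triangles day 14, blue immediate and red delayed repair. Within-group correlations are 0.81, 0.85 and 0.65.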

How the data were processed

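RNA of the tibial stump and of macrophages and Schwann cells sorted from the bridge (1000 cells per library) was measured. The authors deposited estimated counts per gene, neither normalized nor filtered. Per the labels and methods, reads were trimmed with cutadapt 1.8 and aligned with TopHat2 2.1.1 to mm10, and Cuffnorm of Cufflinks 2.2.1 is named. The methods credit it with FPKM values, and which program wrote the deposited counts is not stated in the sources used here. Values more than 1e-06 from a whole number (1.12% in the stump, 0.848% in macrophages and 0.848% in Schwann cells) were rounded. All columns matched a sample, and of 1081 pairs of libraries compared within a table, none (0) held identical values.

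A gene entered a test when 6 or more of the libraries compared reached 5 CPM. Tests were made with edgeR 4.0.16 (quasi-likelihood, TMM scaling, R 4.3.3), and p-values were adjusted over all genes tested, at 0.05. The SE was derived from the fold change and the F statistic. Each library is 1 animal. Schwann cell and macrophage libraries of an animal were paired by its identifier (16 pairs at day 5 and 15 at day 14, median correlation of deviations 0.106 and 0.105), and animal as a block changed no member's call. Alternatives were DESeq2 1.42.0, limma-voom (limma 3.58.1), other scaling and filters, sex, replicate block and, between repair groups and between days in Schwann cells, each library left out (the latter added after seeing the data). Members and lists were chosen with earlier results of these data known. Named genes were all members, up to 3 higher and 3 lower genes per list in the stump by p, the 3 closest genes per member by correlation, and the markers. Depth differs by kind of library, and more counts give a smaller error at low levels. The floor of 3 counts and 95% intervals cover counting error only. Some results of the gene lists are not reported here.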

Additional observations from a re-analysis of the deposited data

Results flagged for a closer look

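In 42 combinations of a gene and a group, the highest or lowest library was compared with the others by Dixon's gap on log2(CPM + 1), which flags about 1 in 20 groups by chance. In 4 of them a library stood apart. Artn was 8.57 CPM in delayed Schwann cell replicate 5 of day 5, with the next library at 1.85 CPM. Gfra1 was 6.07 CPM in delayed stump replicate 3, where the next lowest held 26.0 CPM, and this stump also had the fewest Sox10 counts (36). Gfra1 was 1.92 CPM in immediate Schwann cell replicate 5 of day 14, below the next at 13.6 CPM. Fgf5 was 9.48 CPM in delayed Schwann cell replicate 3 of day 14, below the next at 56.6 CPM.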

How the results depend on the processing

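The 3 largest differences of the set in the stump held in every fit run. Gdnf, Gfra1 and Ngfr were called lower in the delayed stump in 16 of 16 fits that each left out 1 library. Of 709 member fold changes under alternatives 651 kept their direction and side of the threshold, 21 lost the call, 2 gained it and 35 turned in sign. The cause of the changes was not tested. The number of members called in the stump was 3 to 5 with 1 library left out, and Bdnf, which needs all 6 delayed libraries at 5 CPM to be tested, could not be tested in 6 of these 16 fits, so its calls in the other 10 do not show stability. Fgf5 in the stump was -0.082 with limma-voom and -0.12 to 0.32 with 1 library left out. In Schwann cells at day 5, Fgf5 was -1.21 with limma-voom, -0.12 with sex as a covariate and -0.44 to 0.65 with 1 library left out. At day 14 limma-voom gave -0.15 for Gdnf and -0.18 for Gfra1. Leaving out 1 library gave -0.22 to 0.18 for Gfra1, 1.27 to 3.17 for Ntrk2 and -1.33 to -0.69 for Fgf5. Between days after immediate repair, Gdnf was -0.0039 with edgeR's own filter and -0.0027 with none, and Ngfr was 0.042 with limma-voom; with 1 library left out Gdnf was -0.16 to 0.19 and Ngfr -0.56 to 0.24. Between days after delayed repair Gfra1 was 0.56 and Ngfr 0.69 in the main fit. Without the low-Sox10 libraries Gfra1 was -0.25 and Ngfr -0.067, and other alternatives reached 2.23 for Gfra1 and 1.68 for Ngfr. In the interaction Fgf5 was 0.73 with limma-voom.

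Counts of calls moved more. In macrophages at day 5 (3 genes), DESeq2 called 17, sex as a covariate gave 8, and leaving out 1 library 1 to 3. In Schwann cells at day 5 (0 genes), DESeq2 called 14, sex as a covariate 1, the fit without low-Sox10 libraries 1, and leaving out 1 library 0 to 1; at day 14 DESeq2 called 3. Between days, macrophages had 1484 calls after immediate repair with library size scaling (964 with TMM), and after delayed repair 891 with DESeq2 and 1020 with limma-voom (547 with edgeR). Schwann cells had 950 calls with DESeq2 and 612 with limma-voom after immediate repair (382 with edgeR), DESeq2 calling 1 member, Fgf5, and 222 to 638 with 1 library left out. After delayed repair (806 genes, 1 member) they had 1514 with DESeq2 and 47 without low-Sox10 libraries, 359 to 1175 genes and 0 to 1 member with 1 library left out, and 0 members with no filter, with limma-voom and without low-Sox10 libraries. In the interaction, macrophages (2 genes) had 9 with DESeq2, 0 with library size scaling and 4 with limma-voom, and Schwann cells (0 genes) 9 with DESeq2 and 2 without low-Sox10 libraries. Schwann cells against macrophages at day 5 gave 2 members with immediate repair only and 0 with delayed repair only (4 in all), where fewer passed the filter, and at day 14 4531 genes with delayed repair only (6853 in all).

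Replicate numbers were not taken as pairs, since in no comparison of repair groups or days did every pair's deviations correlate above 0.1. In macrophages 7 of 8 pairs at day 5 (median 0.267) and 6 of 7 at day 14 (median 0.265) did. With the replicate block the stump had 2178 genes and 5 members called, macrophages at day 5 had 12 genes, and Schwann cells between days had 197 after immediate and 241 after delayed repair. With the block Gfra1 was -0.30 in Schwann cells at day 14, Ngfr was 0.26 between days after immediate repair, and after delayed repair Ntrk2 (5.99, edgeR adjusted p 0.0485) was called in place of Gdnf. Low levels limit Artn, Bdnf, Ntf3 and Ret in sorted cells.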
